A study of Homo sapiens with 6 samples.

Results

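The HES and HEY genes encode basic helix-loop-helix repressors, and 9 of them (HES1, HES2, HES4, HES5, HES6, HES7, HEY1, HEY2 and HEYL) were followed in LS174T, a line of human colon adenocarcinoma cells that make mucin. The members were all probe sets whose platform gene symbol was one of these 9 genes, which gave 16 of the 54674 probe sets of the array and 9 of the 19775 genes it names. The treated cultures received CompE at 250 nM for 48 h (3 cultures), and the cultures they were set against received the vehicle DMSO for 48 h (3 cultures). All were grown in the same serum-containing medium, and each RNA was hybridised to 1 Affymetrix Human U133 Plus 2.0 array. The gamma-secretase inhibitor Compound E is commonly called CompE, the only form of the name in the labels. The cells are 1 tumour line, so the values describe that line and no other colon cells.

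Gamma-secretase cuts activated Notch receptors in the membrane and so frees their intracellular part. That fragment enters the nucleus, joins the DNA-binding protein RBPJ and a Mastermind co-activator, and switches on target genes, of which the HES and HEY repressors are the best known. In the intestinal epithelium of the mouse, Hes1 holds down Atoh1, the factor that commits progenitors to secretory fates. HES proteins bind N-box and E-box DNA and recruit Groucho (TLE) co-repressors, while HEY proteins act through related sites and other co-repressors. HES6 stands apart: in the mouse it interferes with Hes1 and favours differentiation.

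HES1 fell in CompE and was 2.81-fold lower there by its brighter probe set. HES6 rose 1.496-fold, a call that was lost whichever array was left out. Neither HES5 nor HES4 passed the test, although their CompE arrays all lay below their DMSO arrays. HES2, HES7, HEY1 and HEY2 gave no signal above the array's background on any array, and HEYL lay at that background. Background here is set by 27 control probe sets against Bacillus RNA, absent from human cells: of their mean log2 values the 95th percentile equals an intensity of 45.7. Of the 16 member probe sets, 5 lay above that level in both groups, 10 lay at or below it in both, and 1 (of HEYL) lay between.

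**Figure D1:**
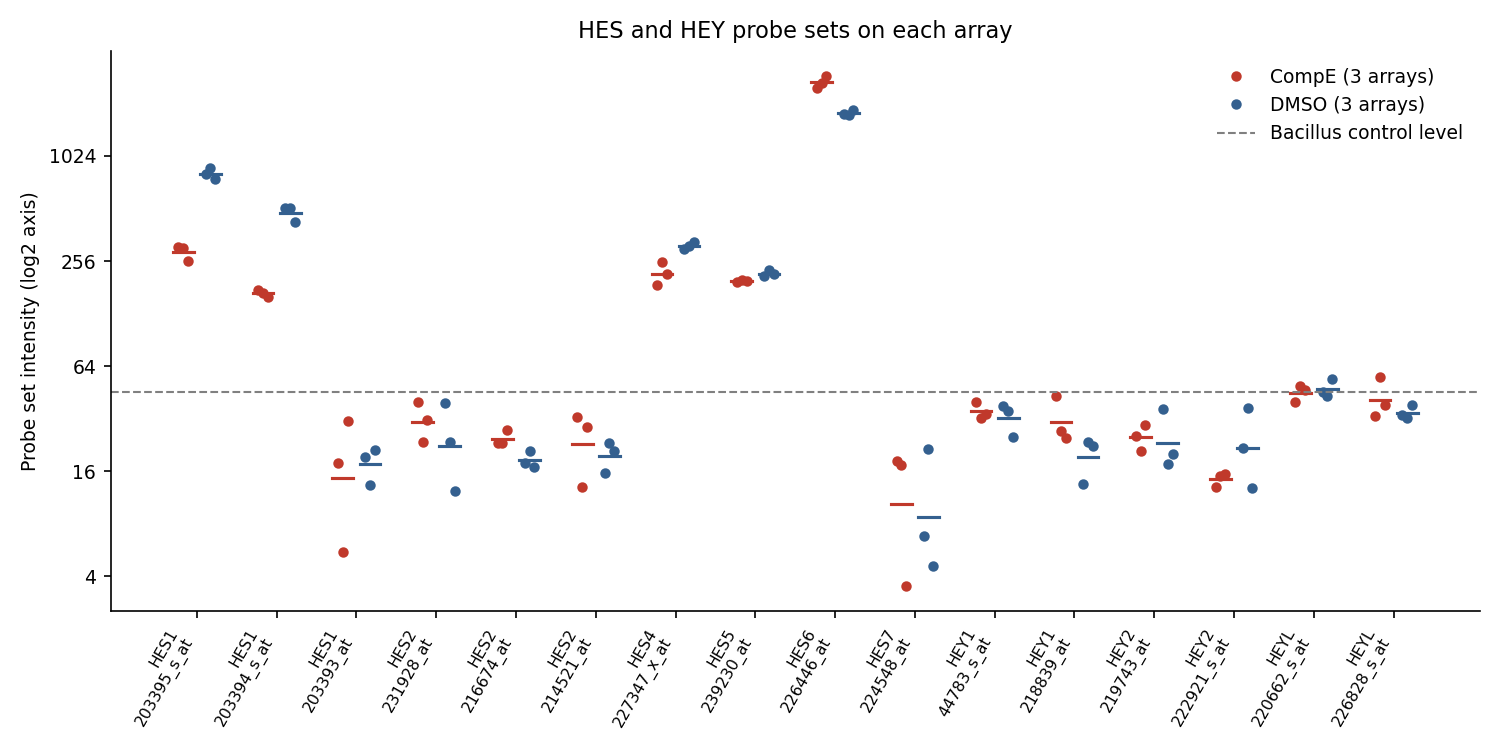
Probe set intensity (log2 axis) of the 16 HES and HEY probe sets on each array. Points are the 3 CompE arrays and the 3 DMSO arrays, short bars are group means of log2 values, and the dashed line is the Bacillus control level of 45.7. Of the 16 probe sets, 5 stand clear of the line in both groups.

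The promoters of these genes differ in whether they carry the DNA motif that RBPJ binds. Stretches that hold it are shown for the members with signal above the Bacillus level in both groups, with HES6 for contrast, and for HEYL and HEY2. The sequences are from RefSeq (GRCh38.p14), read 5′ to 3′ on the strand of the gene, and capitals mark the RBPJ core GTGGGAA or its reverse complement. Each is 60 bases long. The first 4 run from base -110 to base -51 relative to the gene start (base 1 being the first transcribed base in that table), HEYL from -205 to -146 and HEY2 from -240 to -181. The HES1 stretch lies at chr3:194136038-194136097 (plus strand), HES4 at chr1:1000148-1000207 (minus), HES5 at chr1:2530314-2530373 (minus), HES6 at chr2:238240089-238240148 (minus), HEYL at chr1:39639789-39639848 (minus) and HEY2 at chr6:125749392-125749451 (plus).
HES1: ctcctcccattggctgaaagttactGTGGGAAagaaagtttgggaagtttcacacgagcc
HES4: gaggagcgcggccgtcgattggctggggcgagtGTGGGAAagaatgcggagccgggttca
HES5: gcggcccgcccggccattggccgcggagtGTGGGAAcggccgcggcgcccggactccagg
HES6: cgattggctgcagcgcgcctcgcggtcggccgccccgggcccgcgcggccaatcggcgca
HEYL: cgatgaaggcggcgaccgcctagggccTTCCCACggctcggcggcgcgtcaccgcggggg
HEY2: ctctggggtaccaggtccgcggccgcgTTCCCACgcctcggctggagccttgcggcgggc

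Promoter windows of 300 bases (250 before the gene start and 50 after it) were searched on both strands for GTGGGAA, for its shorter form TGGGAA, which every GTGGGAA contains, and for the N-box CACNAG. Windows of 8 member genes were searched, and that of HEY1 was not used here. GTGGGAA was found in 5 of the 8 (HES1, HES4, HES5, HEY2 and HEYL) and in 6.25% of the 35116 windows of all genes. HES1, HES4 and HES5 share its placement: the match began at base -85 in HES1, at base -77 in HES4 and at base -81 in HES5, on the strand of the gene in each. HES1 held a further TGGGAA at base -70 and HEYL one at base -99, both on the strand of the gene, and that shorter motif occurred in 24.0% of all windows. HES5 also had a match at base -224 and HEY2 matches at bases -213 and -4. The windows of HES2, HES6 and HES7 held neither form. CACNAG, the kind of site that HES proteins bind, occurred in 3 of the 8 windows and in 38.03% of all windows. HES1 had 4 such matches, while HES2 and HES7 had 1 each. These are letter matches in a short window and show no binding.

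**Figure D2:**
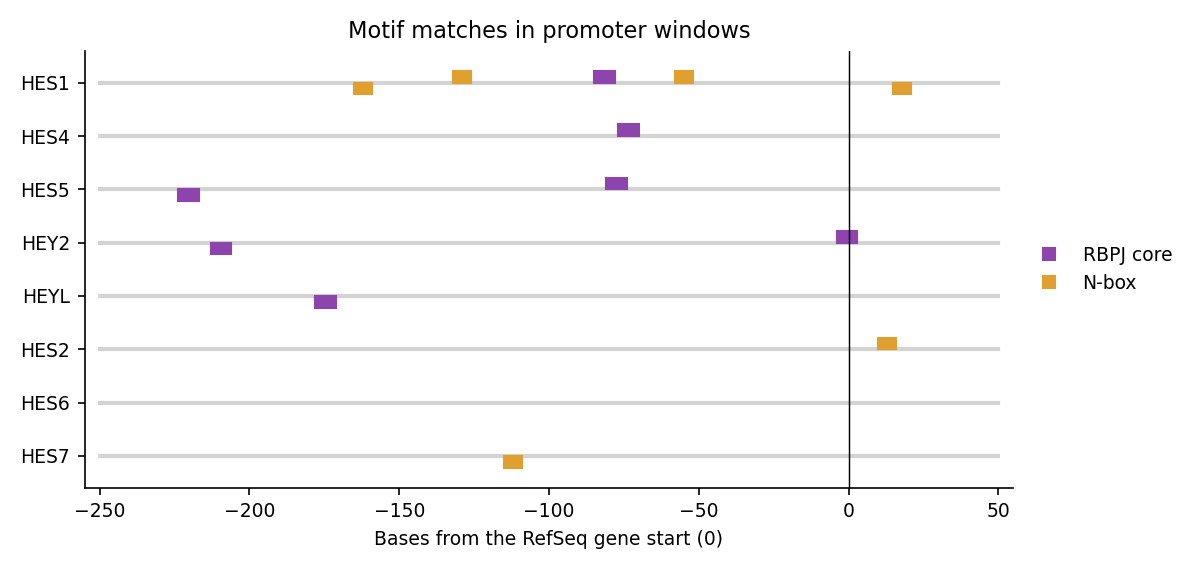
Positions of letter matches to the RBPJ core (purple) and the N-box (orange) in 300-base windows of 8 HES and HEY genes, in bases from the RefSeq gene start. Boxes above a line are on the strand of the gene and boxes below it on the opposite strand. HES1, HES4 and HES5 have an RBPJ core match between bases -85 and -71.

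The arrays were alike in scale. Median probe set intensities were 37.9 to 38.4 on the CompE arrays and 36.9 to 38.6 on the DMSO arrays, and array pairs correlated across probe sets at r = 0.981 to 0.988. The hybridisation controls, bacterial and phage transcripts of the array's standard control set, were brighter by 0.14 log2 units in CompE (exact permutation p = 0.1, the smallest that 3 against 3 arrays allow). The ratio of 3′ to 5′ ACTB probe sets, a measure of RNA integrity, was 1.49 to 1.53 in CompE and 1.42 to 1.46 in DMSO (exact permutation p = 0.1). The same ratio for GAPDH overlapped and had the lower mean in CompE. It was 0.918 to 0.970 in CompE and 0.958 to 0.979 in DMSO (exact permutation p = 0.3). The median log2 value of the Bacillus probe sets was 3.70 to 3.87 in CompE and 3.50 to 3.68 in DMSO (exact permutation p = 0.1). The part of these differences in the results was not tested. All 9 colon epithelium markers examined lay above the Bacillus level in both groups, EPCAM 152-fold in CompE and 146-fold in DMSO, and KRT20 least, 2.12-fold in CompE and 2.15-fold in DMSO. Of these 9, CDX2, an intestinal homeobox factor, rose by 0.43 on the log2 scale by its brightest probe set (limma adjusted p = 0.0228). That call was lost on leaving out any 1 array (adjusted p up to 0.0987), with no filter (0.129) and centred on the hybridisation controls (0.29, adjusted p = 0.0596). The other CDX2 probe set tested was also called higher, at 0.57. Of 5 T cell and leukocyte markers, 4 lay at or below the Bacillus level in both groups, PTPRC at an intensity of 11.1 ± 1.24 in CompE and 11.8 ± 4.30 in DMSO (SD, n = 3 each). CD2, the member of that list with the smallest p, differed by 0.70 (limma adjusted p = 0.223). It lay below the Bacillus level on every array, so that is a difference between background values. It passed the filter only through its CompE arrays (mean log2 value 5.01 in CompE and 4.32 in DMSO). Summed over the 5, the intensity was 136.1 to 182.2 in CompE and 133.5 to 173.2 in DMSO. Of 6 fibroblast and endothelium markers 2 lay at or below that level in both groups. The others lay above it, PECAM1 most, 3.47-fold in CompE and 3.59-fold in DMSO, further than KRT20. A signal a few-fold above that level is thus not by itself evidence that a gene is expressed in these cells. Summed over the 6, the intensity was 432.3 to 469.7 in CompE and 383.6 to 516.2 in DMSO. Of these 6, 5 were tested and 0 passed (0 at an unadjusted p under 0.05, and 0 with an intensity trend in the variance model). DCN had the smallest p (log2 difference 0.26, limma adjusted p = 0.788), and without DMSO replicate 1 its difference was -0.21.

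To ask which repressors responded to CompE, limma was run on log2 intensity over the 32767 probe sets past a filter on dim values. That filter removed the lowest 40% by mean over all 6 arrays (below an intensity of 24.4). The words rose and fell are kept for probe sets with an adjusted p under 0.05 (Benjamini-Hochberg, over all 32767). In all, 995 probe sets (3.04%) passed: 633 rose (1.93%) and 362 fell (1.1%). The count was 148, 263 and 288 without CompE replicates 1, 2 and 3, and 221, 179 and 205 without DMSO replicates 1, 2 and 3. Centred on the hybridisation controls, which moved the median change of all probe sets to -0.13 from 0.01, 356 rose and 1441 fell. Of the 16 member probe sets 9 were past the filter. Of these 9, 2 fell, 1 rose and 6 did not pass. Both probe sets that fell belong to HES1, so they share a target. The groups did not overlap for 5 of the 9, against 28.4% of all probe sets tested. CompE was lower in 4 of these (12.5% of all probe sets), of which 2 are of HES1, and higher in 1 (15.9% of all). The median change was -0.07 over the 9 and 0.01 over all probe sets tested. Among the 9, HES2 231928_at passed the filter only through its CompE arrays. Its mean log2 value was 4.94 in CompE and 4.49 in DMSO, against the filter's 4.61. The counts and the median given here include it, and its result is no support for any statement about the members.

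**Figure D3:**
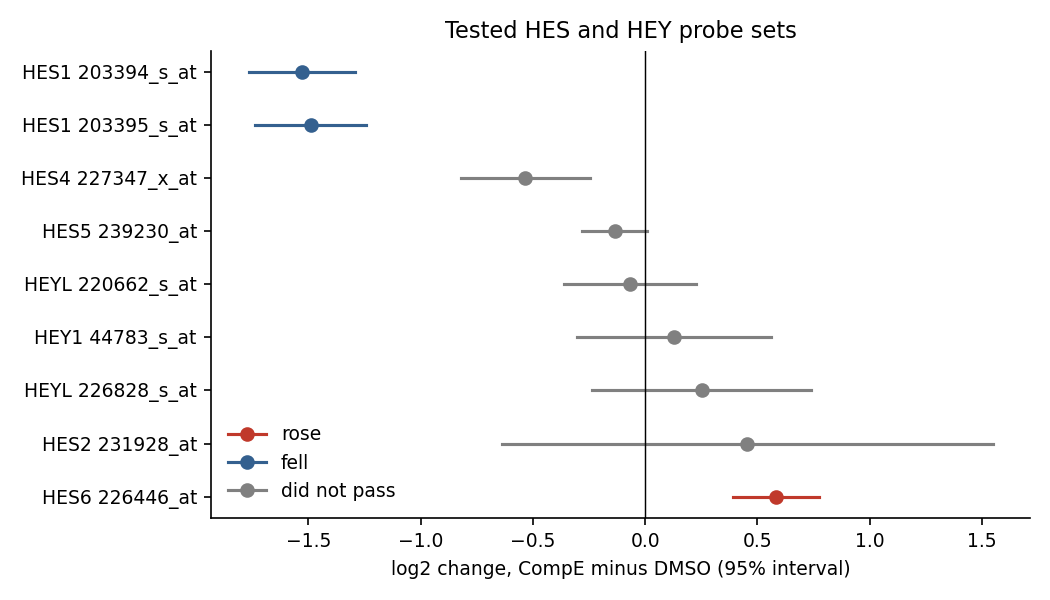
Log2 change (CompE minus DMSO) with its 95% limma interval for the 9 HES and HEY probe sets past the filter. The 2 HES1 probe sets lie at -1.53 and -1.49, HES6 at 0.58, and the intervals of the HES5, HEY1, HEYL and HES2 probe sets include 0. The HES2 probe set passed the filter only through its CompE arrays.

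HES1 is the Notch-induced repressor of the intestinal crypt. Its brighter probe set, 203395_s_at, read 307, 306 and 255.6 on the CompE arrays, against 804, 872 and 756 on the DMSO arrays. All 3 CompE arrays lay below all 3 DMSO arrays, and the spread within each group was small beside the gap. The means were 289 ± 29.2 in CompE and 811 ± 58.2 in DMSO (SD, n = 3 each). The log2 change was -1.49 ± 0.10 (SE; 95% interval -1.74 to -1.24; limma adjusted p = 0.00405). Relative to the Bacillus level HES1 stood 6.31-fold above it in CompE and 17.7-fold above it in DMSO, so its signal stayed above that level under CompE. In RNA from whole cultures, fewer cells that express HES1 and less HES1 RNA per cell cannot be told apart.

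A second HES1 probe set, 203394_s_at, read 175, 168 and 159.5 in CompE, against 513, 517 and 426 in DMSO. Its change was -1.53 ± 0.10 (SE; limma adjusted p = 0.00378). Again no CompE array came near a DMSO array. Set against each other within arrays, the changes of the 2 probe sets differed by 0.04 log2 units (exact two-sided permutation p = 0.6; adjusted p = 0.6 over the 2 same-gene pairs compared), less than either standard error. Ranked by log2 change among all 32767 probe sets tested, they ranked 12 and 14 by size of fall. The remaining HES1 probe set, 203393_at, read 17.9, 5.54 and 31.0 in CompE and 19.2, 13.3 and 21.1 in DMSO. It lay below the Bacillus level on every array and was not past the filter.

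HES6, the family member that in the mouse opposes Hes1, has 1 probe set, 226446_at. It read 2502, 2691 and 2930.0 in CompE, against 1785, 1762 and 1875 in DMSO. All 3 CompE arrays were above all 3 DMSO arrays. The means were 2708 ± 214 in CompE and 1807 ± 59.8 in DMSO (SD, n = 3 each), 59.2-fold above the Bacillus level in CompE and 39.6-fold above it in DMSO. The log2 change was 0.58 ± 0.08 (SE; 95% interval 0.39 to 0.77; limma adjusted p = 0.0247). It ranked 776 by log2 change among all probe sets tested. The call ended whichever array was left out (adjusted p 0.0639 to 0.105, with log2 changes of 0.52 to 0.64), with no filter on dim probe sets (adjusted p = 0.125), and with the arrays centred on the hybridisation controls (log2 change 0.44, adjusted p = 0.0612).

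HES4, a human family member close to HES1, is represented by 227347_x_at, a probe set of the kind that can also bind unrelated transcripts. It read 188, 252 and 215 in CompE, against 301, 311 and 329.5 in DMSO. The groups did not overlap, but the CompE arrays were spread more widely than the DMSO arrays, with means of 218 ± 32.1 in CompE and 314 ± 14.6 in DMSO (SD, n = 3 each). The log2 difference of -0.53 ± 0.12 (SE; 95% interval -0.82 to -0.24) missed the threshold (limma adjusted p = 0.0772). It passed with a stricter filter that left out the lowest 60% (adjusted p = 0.0235), with an intensity trend in the variance model (0.00275) and centred on the hybridisation controls (log2 difference -0.68, adjusted p = 0.0328). HES4 stood 4.75-fold above the Bacillus level in CompE and 6.87-fold above it in DMSO. What share of this signal is HES4 RNA was not tested.

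HES5, the Notch-responsive repressor of neural progenitors, read 195, 200.5 and 196 in CompE, against 209, 226 and 215 in DMSO (probe set 239230_at). The groups did not overlap, yet they lay close together. The means were 197 ± 3.0 in CompE and 217 ± 8.75 in DMSO (SD, n = 3 each). The log2 difference of -0.14 ± 0.06 (SE) did not pass (limma adjusted p = 0.27). For the signal of this probe set the 95% interval, -0.28 to 0.01, excludes a change of the size measured for HES1. How much of that signal is HES5 RNA was not tested. Centred on the hybridisation controls the difference was -0.28 (limma adjusted p = 0.0740). Its RBPJ core match begins at base -81 and that of HES1 at base -85. HES5 stood 4.32-fold above the Bacillus level in CompE and 4.74-fold above it in DMSO.

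The HEY genes, known from heart and blood vessel development, gave little or no signal. HEYL lay at the edge of background. Its probe set 220662_s_at read 40.06, 49.1 and 46.6 in CompE and 45.6, 43.0 and 53.8 in DMSO, with 4 of the 6 arrays above their own Bacillus level. Its log2 difference was -0.07 (95% interval -0.36 to 0.22; limma adjusted p = 0.795). The other HEYL probe set, 226828_s_at, read 33.0, 55.2 and 38.3 in CompE and 33.6, 32.2 and 38.1 in DMSO, a log2 difference of 0.25 (95% interval -0.24 to 0.74; limma adjusted p = 0.533). Without CompE replicate 2, its highest array, the difference was 0.039, without CompE replicate 1 it was 0.41, and centred on the hybridisation controls it was 0.11. The changes of this pair differed by -0.32 (exact two-sided permutation p = 0.1, the smallest possible; adjusted p = 0.2 over the 2 pairs).

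HEY1 and HEY2 were not above background on any array. The brighter HEY1 probe set, 44783_s_at, read 39.98, 32.4 and 34.1 in CompE and 37.7, 35.5 and 25.2 in DMSO (limma adjusted p = 0.731). The second, 218839_at, read 43.3, 27.2 and 24.7 in CompE and 13.5, 23.7 and 22.3 in DMSO. Its CompE arrays were all higher, but it was not past the filter and no fold is given, since both groups were below the Bacillus level. HEY2 read 25.4, 21.0 and 29.5 in CompE and 36.1, 17.5 and 20.03 in DMSO (probe set 219743_at). Its second probe set, 222921_s_at, read 13.01, 15.03 and 15.4 in CompE and 21.8, 36.8 and 12.8 in DMSO. Neither was past the filter, and for both the groups overlapped.

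HES2 and HES7, of which HES7 is a repressor of the segmentation clock of the mouse embryo, were also below the Bacillus level on every array. HES2's brightest probe set, 231928_at, read 39.6, 23.4 and 31.4 in CompE and 39.3, 23.4 and 12.3 in DMSO (limma adjusted p = 0.621). That probe set was past the filter only through its CompE arrays. The second, 216674_at, read 23.3, 23.1 and 27.6 in CompE and 17.9, 21.0 and 17.02 in DMSO, with no overlap of the groups. The third HES2 probe set, 214521_at, read 32.8, 12.9 and 28.7 in CompE and 15.6, 23.2 and 21.02 in DMSO. Neither the second nor the third was past the filter. HES7 read 18.3, 17.3 and 3.52 in CompE and 6.77, 21.4 and 4.56 in DMSO (probe set 224548_at). Over the 9 member probe sets that exceeded the Bacillus level on no array, intensities ran from 3.52 to 43.3 in CompE and from 4.56 to 39.3 in DMSO.

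Of the genes that HES1 is reported to repress, ATOH1, DLL1 and NEUROG3 rose. The list held 8 genes, chosen, like the lists that follow, with earlier results of these data known, and each gene was represented by its brightest probe set. Of the 6 with a probe set of 1 gene, 5 were tested, and 3 of these rose and 0 fell (at an unadjusted p under 0.05, 5 were higher and 0 lower; 4 were called with an intensity trend). Over all genes 2.53% rose and 1.31% fell by the same rule. The median change was 1.35, against 0.01 over all probe sets. ATOH1, the secretory fate factor, read 558, 530.3 and 634 in CompE, against 101, 78.9 and 102 in DMSO. None of its CompE arrays was near the DMSO arrays (log2 change 2.61 ± 0.13 SE, limma adjusted p = 0.00220). NEUROG3, the endocrine progenitor factor, read 58.7, 65.5 and 60.3 in CompE, against 17.6, 19.4 and 11.7 in DMSO. Since DMSO lay below the Bacillus level, it was at least 1.35-fold higher in CompE (limma adjusted p = 0.0112). Its DMSO mean of 16.2 lay under the filter's 24.4, so it passed the filter only through its CompE arrays. The counts and the median given for this list include it. Apart from it, ATOH1 and DLL1 rose and the other genes tested did not pass. The NEUROG3 call is therefore no support for a rise of the list. That call ended without CompE replicate 1, 2 or 3 (adjusted p 0.0653, 0.0567 and 0.0562) and with no filter (0.0626). DLL1, a Notch ligand, read 1178, 1188 and 1001 in CompE, against 441, 436 and 439 in DMSO, a rise of 1.35 on the log2 scale (limma adjusted p = 0.00354), while its dimmer probe set gave -0.02. For CDKN1C, a cell cycle inhibitor whose brightest probe set did not pass, 1 dimmer probe set was called higher.

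Other Notch target genes changed in both directions. Of 13, 12 were tested: 1 fell, 2 rose and 9 did not pass, with a median change of -0.06, beside the 1.31% of all genes that fell and the 2.53% that rose. At an unadjusted p under 0.05, 2 were higher and 4 lower, and 5 were called with an intensity trend. OLFM4, a glycoprotein of crypt stem cells, read 299.7, 315 and 335 in CompE, against 1803, 1994 and 1974 in DMSO. It fell by 2.60 on the log2 scale (limma adjusted p = 0.00122). LFNG, a glycosyltransferase that modifies Notch, rose by 1.27 (limma adjusted p = 0.00210) and the receptor gene NOTCH1 by 0.78 (limma adjusted p = 0.00462). The other probe set tested was not called for either gene, at 0.80 for LFNG and 0.57 for NOTCH1. NRARP, a feedback inhibitor of the Notch complex, read 1798, 1718 and 1579 in CompE, against 2147, 2141 and 2065 in DMSO. Its groups did not overlap, but its log2 difference of -0.32 ± 0.07 (SE) missed the threshold (limma adjusted p = 0.0756). NRARP passed when 1 probe set per gene was tested (0.0418), with the stricter filter (0.0229) and with a trend (0.000604). It also passed centred on the hybridisation controls (-0.46, adjusted p = 0.0262). Of 18 alternatives 12 left it short, among them each array left out in turn (adjusted p up to 0.197).

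By their brightest probe sets, neither the nuclear Notch complex, nor the co-repressors of HES and HEY proteins, nor their relatives gave a call. In the nuclear Notch complex 0 of 8 genes passed (2 higher and 0 lower at an unadjusted p under 0.05, and 1 called with an intensity trend), with a median change of 0.02. RBPJ itself read 1236, 1173 and 1185 in CompE, against 1022, 1074 and 1025 in DMSO, a log2 difference of 0.20 (95% interval 0.06 to 0.35; limma adjusted p = 0.129). That difference was 0.06 (limma adjusted p = 0.62) centred on the hybridisation controls, while RBPJ passed with a trend (0.0126) and when 1 probe set per gene, above the Bacillus level in a group, was tested (0.0446). Among co-repressors 0 of 9 tested passed (2 higher and 0 lower at an unadjusted p under 0.05, and 1 called with a trend), with a median of 0.10. TLE5, a short Groucho-related protein, was closest, at 848 ± 19.4 in CompE and 707 ± 13.9 in DMSO (SD, n = 3 each; log2 difference 0.26, limma adjusted p = 0.0702). It passed with the stricter filter (0.0203), with a trend (0.00378) and with 1 probe set per gene (0.0323), but centred on the hybridisation controls its difference was 0.12 (0.298). Of 4 relatives of the same protein class, 2 had a probe set of 1 gene, and 0 passed (both lower at an unadjusted p under 0.05, and both called with a trend). BHLHE41, a clock-linked repressor, differed by -0.43 (limma adjusted p = 0.125). It passed with the stricter filter (0.0480), with a trend (0.0144) and centred on the hybridisation controls (-0.57, adjusted p = 0.0376). BHLHE40, a close relative of it, differed by -0.23 by its brightest probe set (limma adjusted p = 0.224), while its other probe set was called lower, at -0.50.

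**Figure D4:**
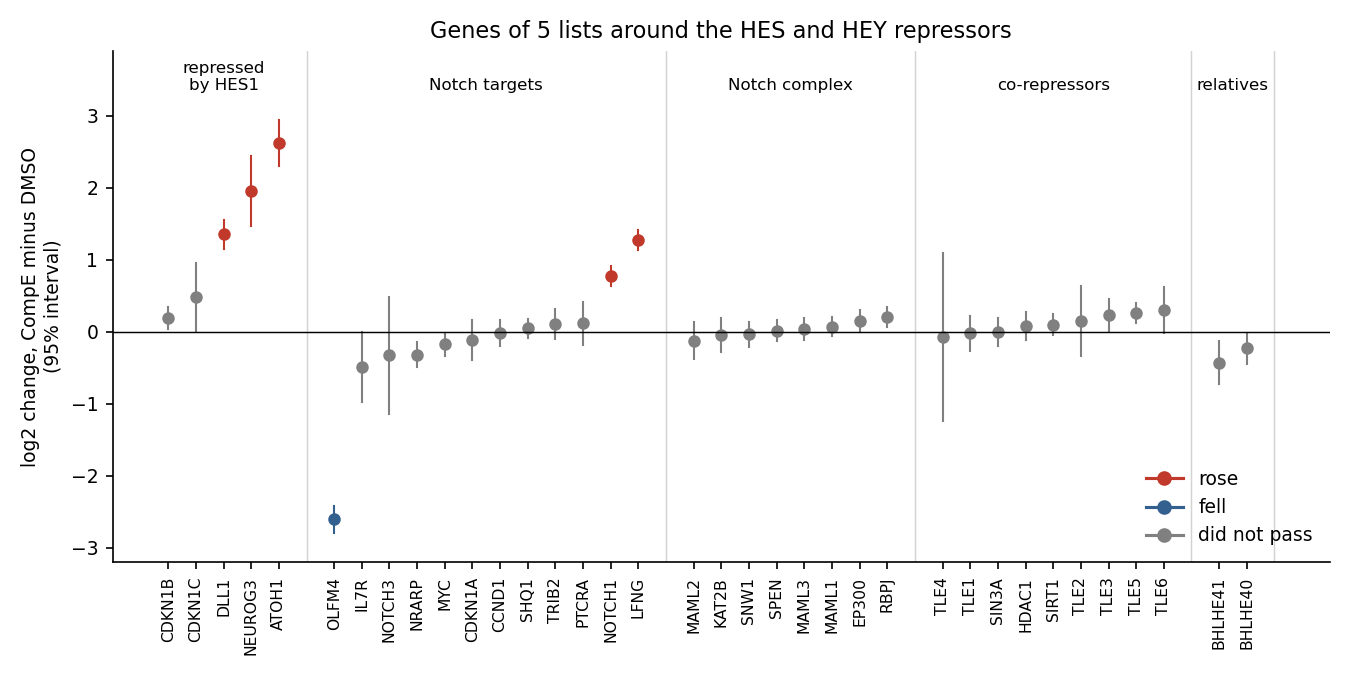
Log2 change (CompE minus DMSO) with its 95% limma interval for the tested genes of 5 lists, each by its brightest probe set. Genes reported as repressed by HES1 lie between 0.19 and 2.61, while the genes of the nuclear Notch complex lie between -0.12 and 0.20.

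The genes whose pattern was most like that of HES1 were sought among 26960 probe sets of 1 gene by the root mean square difference over the 6 arrays between log2 profiles, each set to 0 at its DMSO mean. The nearest was ANXA1, an annexin gene, with a difference of 0.08 log2 units, as near as the second HES1 probe set (0.08). NOX1, an oxidase gene of colon epithelium, followed at 0.10. The forkhead factor gene FOXQ1 was at 0.11, the chemokine gene CXCL8 at 0.12 and the ETS factor gene ETV4 at 0.14. Their log2 changes lay between -1.57 (CXCL8) and -1.35 (ETV4). The measure was taken over 3 arrays of each group and describes likeness in the size of the change.

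**Figure D5:**
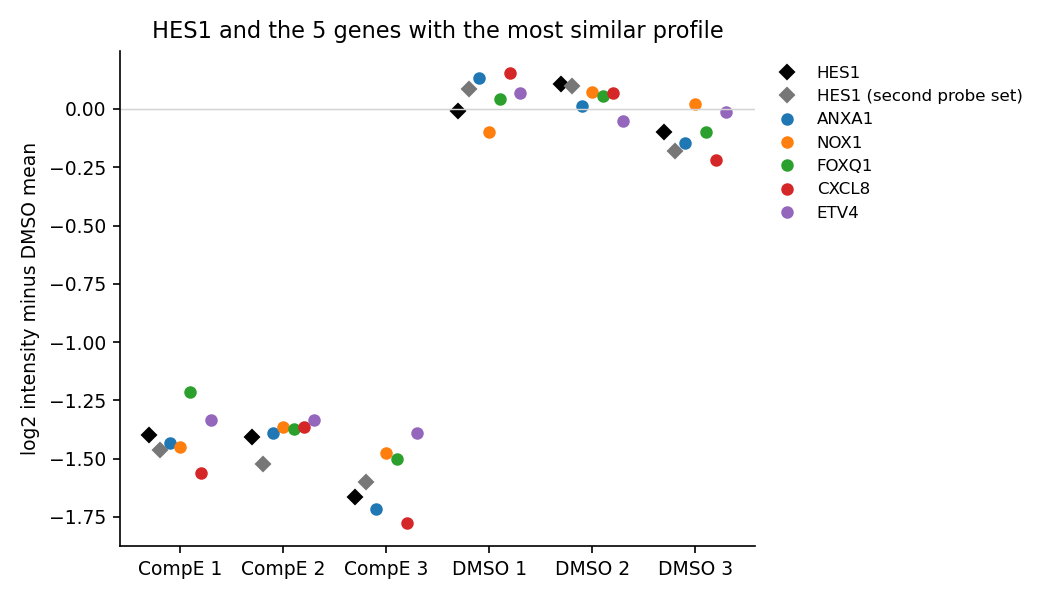
Log2 intensity minus its DMSO mean on each array for 2 HES1 probe sets (diamonds) and the 5 genes with the most similar profile (circles). On the CompE arrays all 7 probe sets lie more than 1 log2 unit below their DMSO means.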

How the data were processed

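The deposited table holds probe set intensities, linear in scale, that the authors normalized between arrays with dChip, per the series' design text. The dChip version and probe model were not given in the sources used here. Submitters also describe choosing 10896 probes of low variation, which is not applied in this table.

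Intensities were floored at 1 and converted to log2. The 62 Affymetrix control probe sets and the lowest 40% by mean log2 value were left out. Names came from the 2016 platform annotation (41091 probe sets with 1 gene, 1800 with several), with symbols updated through Entrez identifiers. Limma 3.58.1 (R 4.3.3; lmFit, eBayes, no covariate, two-sided) compared CompE with DMSO on all 6 arrays. Precision is limited by their number (median SE of a log2 change 0.10). In simulated data for this comparison (32767 probe sets) 55 of 100 changes of 1 log2 unit and 16 of 100 of 0.5 were recovered, with 8 false calls. Only these probe sets were changed there, fewer than the 995 called in the data. The spread of each simulated probe set was its estimate from these arrays. Recovery in the data may therefore differ. The labels call the cultures replicates; the p-values measure the spread between these 3 and 3 cultures.

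Alternatives covered filtering, centring, floor, variance model, 1 probe set per gene, a replicate block and leaving out each array. Genes were named by rule: all member probe sets; up to 4 passing genes per list with the smallest p, or the one with the smallest p where none passed; ATOH1, NEUROG3, NRARP and OLFM4; and the 5 genes nearest to HES1. BHLHE40, CDKN1C, EPCAM, KRT20, PECAM1 and PTPRC were named after their values were seen. Members and lists were chosen with earlier results of these data known.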

Additional observations from a re-analysis of the deposited data

How the results depend on the processing

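HES1 was lower in CompE in the 17 alternatives run for 203395_s_at (log2 change -1.63 to -1.40) and passed in 16. Deviations of same-numbered arrays correlated at 0.02, -0.08 and -0.02. Over all combinations of a CompE and a DMSO array they lay between -0.08 and 0.09, the highest for CompE replicate 3 with DMSO replicate 2. Values this small, from 3 arrays per group, cannot show whether the replicate numbers pair the arrays. With the replicate number as a block, 0 of 32767 probe sets passed in limma (5668 at an unadjusted p under 0.05) and so 0 of the 9 member probe sets (4 at an unadjusted p under 0.05); the HES1 changes of -1.49 and -1.53 then had an adjusted p of 0.0744, the lowest of that fit, which has fewer residual degrees of freedom. The count of member calls was 2 to 4 otherwise, and 2 whichever array was left out. The count of all calls, 995 as reported, was 130 with no filter, 2604 with the lowest 60% left out, 1797 centred on the hybridisation controls, 3444 with an intensity trend, and 148 to 288 with 1 array left out. It was 4602 among the 10896 probe sets of lowest within-group SD, a choice that itself lowers p. HES5 (adjusted p = 0.0207) and HES6 were the 2 members among those, and HES1 was not. With 1 probe set per gene and only those above the Bacillus level in a group, choices made together after seeing the data, it was 1531, and HES4 passed there (adjusted p = 0.0274), against 0.0508 with 1 probe set per gene alone. The sign of uncalled differences turned for HEY1 (44783_s_at; -0.013 centred on the hybridisation controls, and -0.050 to 0.24 with 1 array left out), for HEYL (220662_s_at; -0.14 to 0.025) and for DCN (-0.21 to 0.51). The cause was not tested. Dim signal limits what can be said of HES2, HES7, HEY1, HEY2 and HEYL.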
